A study of Mus musculus with 3 samples.

Results

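The loci of 5 genes for enzymes that write or erase DNA methylation, Tet1, Tet3, Dnmt1, Dnmt3a and Dnmt3b, were examined in chromatin immunoprecipitation libraries of mouse embryonic stem (ES) cells. The loci were taken by fixed bounds in build mm9. Tet1 was chr10:62260001-62350000, Tet3 chr6:83305001-83415000, Dnmt1 chr9:20705001-20765000, Dnmt3a chr12:3795001-3920000 and Dnmt3b chr2:153465001-153520000. Together they span 440 kb of 2557540 kb and hold 1755 of 10230141 overlapping windows of 500 bp. The cells were of C57BL/6 origin, grown without feeders, and no genotype change or treatment is labelled. Immunoprecipitation used an antibody made in-house against TET2, a commercial antibody against OGT, or an antibody against H2B S112GlcNAc, with 1 library each. TET2 oxidises 5-methylcytosine. OGT is the enzyme that puts the sugar N-acetylglucosamine on serines and threonines, and H2B S112GlcNAc is a form of histone H2B modified in this way. Without an input library the signal of an antibody cannot be told apart from uneven recovery of chromatin.

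DNA methyltransferases place methyl groups on cytosine, mostly where cytosine is followed by guanine (CG). DNMT1 copies methylation onto the new strand after replication, while DNMT3A and DNMT3B set it on unmethylated DNA. TET enzymes oxidise 5-methylcytosine, which opens a route back to cytosine. ES cells are known to use Tet1 and Tet2 more than Tet3, and to make a short form of DNMT3A from a start inside the gene. The Dnmt1 gene is known for a start used in oocytes that lies upstream of the start used in other cells.

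Promoter sequences are shown because CG, the substrate of these enzymes, differs widely in number among the promoters of their own genes. All 5 genes matched the RefSeq promoter table, whose build is GRCm38.p6 and therefore not that of the reads. Its coordinates were not used. The 250 bases before a listed start are given 5′ to 3′ on the gene's strand, with every CG in capitals. Tet1, Tet3 and Dnmt1 lie on the minus strand, and Dnmt3a and Dnmt3b on the plus strand.
Tet1: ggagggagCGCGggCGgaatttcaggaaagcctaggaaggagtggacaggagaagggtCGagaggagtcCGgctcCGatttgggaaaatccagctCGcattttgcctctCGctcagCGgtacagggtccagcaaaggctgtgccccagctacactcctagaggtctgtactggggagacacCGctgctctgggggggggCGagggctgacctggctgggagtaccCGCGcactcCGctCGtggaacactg
Tet3: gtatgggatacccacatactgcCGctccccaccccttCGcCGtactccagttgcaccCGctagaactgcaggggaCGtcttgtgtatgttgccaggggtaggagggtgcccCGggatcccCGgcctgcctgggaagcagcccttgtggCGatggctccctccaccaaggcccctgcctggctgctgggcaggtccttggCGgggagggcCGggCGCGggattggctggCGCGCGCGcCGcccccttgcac
Dnmt1, second listed start: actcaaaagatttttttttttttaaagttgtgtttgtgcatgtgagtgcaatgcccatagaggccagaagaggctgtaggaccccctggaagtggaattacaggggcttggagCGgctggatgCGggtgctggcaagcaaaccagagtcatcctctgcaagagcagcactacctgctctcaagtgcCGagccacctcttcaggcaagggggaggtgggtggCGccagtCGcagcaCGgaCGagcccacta
Dnmt3a, first listed start: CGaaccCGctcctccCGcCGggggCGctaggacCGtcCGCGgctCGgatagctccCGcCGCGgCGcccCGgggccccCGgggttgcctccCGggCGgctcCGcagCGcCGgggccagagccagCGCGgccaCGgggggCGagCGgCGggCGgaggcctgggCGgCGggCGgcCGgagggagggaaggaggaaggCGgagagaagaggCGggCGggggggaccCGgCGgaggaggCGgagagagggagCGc
Dnmt3a, internal start: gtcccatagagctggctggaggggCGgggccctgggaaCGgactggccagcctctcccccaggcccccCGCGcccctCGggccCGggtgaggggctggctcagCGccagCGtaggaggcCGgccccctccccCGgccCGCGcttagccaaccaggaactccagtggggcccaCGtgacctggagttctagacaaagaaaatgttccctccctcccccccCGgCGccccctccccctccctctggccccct
Dnmt3b: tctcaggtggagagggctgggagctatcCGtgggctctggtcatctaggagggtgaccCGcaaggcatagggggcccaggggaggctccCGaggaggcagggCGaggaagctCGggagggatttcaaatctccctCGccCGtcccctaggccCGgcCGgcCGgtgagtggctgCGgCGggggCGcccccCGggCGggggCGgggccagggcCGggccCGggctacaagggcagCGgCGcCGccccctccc
Across 32851 promoters in the table the median was 6.00 CG and 52.4% G or C. The first Dnmt3a start had 38 CG, a number reached by 1.88% of promoters, and 82.4% G or C. Dnmt3b had 21 CG, Tet3 17, and Tet1 and the internal Dnmt3a start 15 each. The table lists 3 starts for Dnmt1, with 2, 7 and 26 CG in order from the 5′ end. The GC box GGGCGG, searched on both strands, was found 5 times before the first Dnmt3a start, 4 times before the second Dnmt3a start, 3 times before Dnmt3b, 2 times before the third Dnmt1 start, and 1 time each before Tet1, Tet3 and the internal Dnmt3a start. The first and second Dnmt1 starts had 0. Sequences of the other Dnmt1 starts and of the second Dnmt3a start, which had 40 CG, are not shown. The GC box occurs in 32.7% of promoters. CACGTG, which reads the same on both strands, was found 1 time, before the internal Dnmt3a start, and occurs in 6.02% of promoters. These matches describe letters in a window and no binding.

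Each distinct 5′ end (position) entered once, moved 100 bp towards the fragment centre, and its density was divided by the library mean to give the fold used below. A window of 500 bp held on average 0.644 TET2, 0.367 OGT and 0.786 H2B S112GlcNAc positions, from 3832237, 2179445 and 4647963 aligned reads. A single position in 500 bp thus counts for more in the OGT library, and the exact 95% Poisson intervals given in brackets are wide at these depths. They cover counting error alone, because each antibody has 1 library. No value has a replicate check. None of the loci holds a 1 kb bin in the top 0.1% of all 3 libraries.

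All 5 loci were denser than the library mean in all 3 libraries, with OGT at Tet3 standing above the rest. The TET2 fold over a whole locus was 1.61 (1.39 to 1.86) at Tet1, 1.93 (1.70 to 2.17) at Tet3, 2.25 (1.93 to 2.61) at Dnmt1, 2.35 (2.12 to 2.60) at Dnmt3a and 1.81 (1.51 to 2.15) at Dnmt3b. The H2B S112GlcNAc fold was 1.77 at Tet3, 2.19 at Dnmt1, 1.98 at Dnmt3a and 1.68 at Dnmt3b and lower than each of these at Tet1. The OGT fold was 1.42 at Tet1, 3.37 at Tet3, 2.04 at Dnmt1, 1.90 at Dnmt3a and 1.96 at Dnmt3b. Of these 15 values the OGT fold at Tet3 (2.98 to 3.79) stood highest. Over all 10 kb bins of the genome the median TET2 fold was 0.776 and the 95th percentile 2.41, while OGT had 0.817 and 2.32, and H2B S112GlcNAc 0.827 and 2.16. Of the whole-locus folds, those of OGT at Tet3 and of H2B S112GlcNAc at Dnmt1 alone were above these 95th percentiles. Scaled to library size, OGT density over Tet3 was 1.75-fold that of TET2 (1.47 to 2.08) and 1.90-fold that of H2B S112GlcNAc (1.61 to 2.25). At Tet1, Dnmt1 and Dnmt3b the interval of every ratio between libraries held 1. At Dnmt3a TET2 was 1.24-fold OGT (1.03 to 1.49) and 1.18-fold H2B S112GlcNAc (1.02 to 1.37).

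Each locus was divided into the 15 kb at its 5′ edge, called the promoter side, and the rest, which holds the body and the 3′ flank. The split is not strictly promoter against body. In the RefSeq table the listed Tet3 start lies 15.5 kb, and the internal Dnmt3a start 90.2 kb, inside the gene's 5′ end. If that end is within the locus, both starts fall in the rest. TET2 was denser on the promoter side of Tet3, with 59 positions against 214 in the much longer rest, a density ratio of 1.75 (1.29 to 2.34). Dnmt3b, the methyltransferase known for early embryos, had 51 TET2 positions on the promoter side against 77 in 40.0 kb, a ratio of 1.77 (1.21 to 2.55). The TET2 ratio was 1.19 (0.805 to 1.72) at Tet1, 1.24 (0.879 to 1.74) at Dnmt1 and 1.28 (0.943 to 1.70) at Dnmt3a, and these intervals hold 1. With a promoter side of 20 kb the gap at Dnmt3b and Tet3 narrowed. At Dnmt3b the TET2 folds of promoter side and rest were 2.64 and 1.49 with 15 kb, and 2.10 and 1.64 with 20 kb. At Tet3 they were 3.05 and 1.75, then 2.48 and 1.80. Ratio intervals are not given for 20 kb. H2B S112GlcNAc ratios lay between 0.787 and 1.03 and every interval held 1. For OGT the ratio was 0.476 (0.282 to 0.758) at Tet3, where the rest was denser, and the intervals of the other 4 loci held 1.

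**Figure D1:**
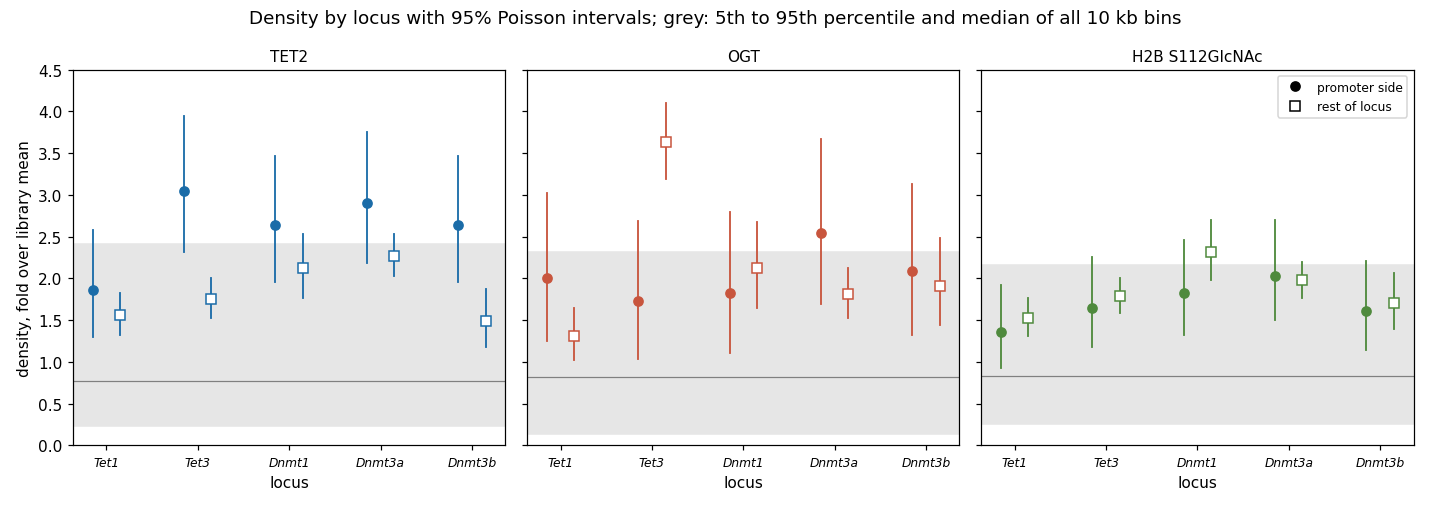
Density of distinct positions over the library mean (vertical axis) at the promoter side (filled circles) and in the rest (open squares) of each locus, 1 panel per library, with 95% Poisson intervals. Grey shows the 5th to 95th percentile of all 10 kb bins, and its line their median. The rest of Tet3 stands apart in OGT at 3.63, while TET2 is above its grey band on the promoter side of 4 loci. Also above their bands are OGT on the promoter side of Dnmt3a, at 2.54, and H2B S112GlcNAc in the rest of Dnmt1, at 2.32.

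Enriched windows were called within each library against the local background, at an adjusted Poisson tail of 0.01 and at least 4-fold. Of the 1755 windows 8 were called for TET2, which is 0.456% against 0.162% of all windows. For OGT 9 were called, 0.513% against 0.0304%, and all 9 lay in Tet3. For H2B S112GlcNAc 1 was called, 0.0570% against 0.0440%, a share near that of the genome. Merged, these windows made 10 regions, of which 6 lie in Tet3, 3 in Dnmt3a and 1 in Dnmt1. Tet1 and Dnmt3b had none. At 8-fold 1 TET2 and 3 OGT regions were called, and at a tail of 1e-05 1 TET2 and 2 OGT regions. TET2 and OGT were called together in 1 window, 0.0570% against 0.0189% of all windows. No window was called in TET2 with H2B S112GlcNAc (0.0263% of all windows), in OGT with H2B S112GlcNAc (0.0142%) or in all 3 libraries (0.0132%). No call in the genome had fewer than 7 TET2, 6 OGT or 8 H2B S112GlcNAc positions, so weaker enrichment was not detectable.

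**Figure D2:**
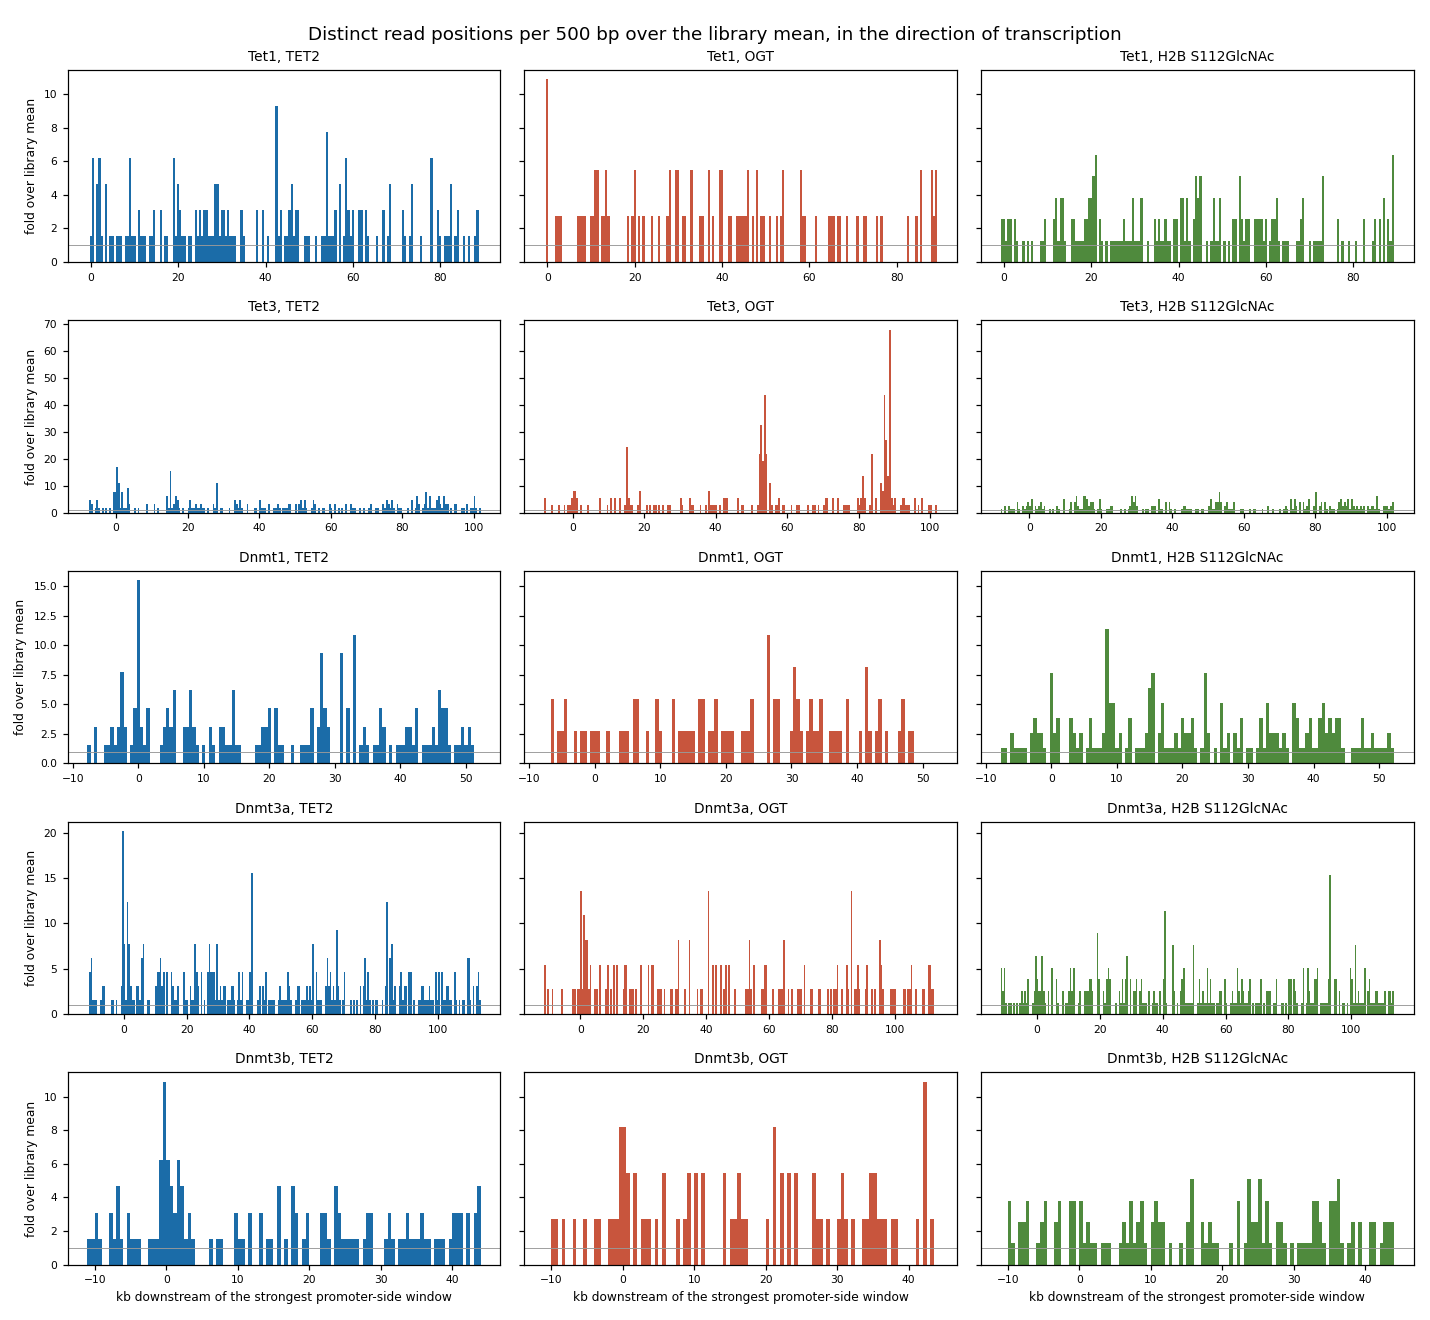
Fold over the library mean in adjoining 500 bp windows (vertical axis, shared within a row) against distance in kb downstream of the strongest promoter-side window, for 5 loci (rows) and 3 libraries (columns). OGT at Tet3 reaches a fold of 68.1 far downstream. The origin was chosen by the summed fold of the 3 libraries, so height at 0 follows from that choice.

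Dnmt3a carried the highest promoter-side TET2 window of the 5 loci. The region chr12:3806001-3806750 held 15 TET2 positions, 10 on the plus and 5 on the minus strand, with 4 OGT and 6 H2B S112GlcNAc positions. The folds were 15.5 (8.69 to 25.6), 7.26 (1.98 to 18.6) and 5.09 (1.87 to 11.1). All 3 libraries had intervals above 1. The lower bounds of OGT and H2B S112GlcNAc, 1.98 and 1.87, were near their whole-locus folds of 1.90 and 1.98. Scaled to library size, TET2 was 2.14-fold OGT (0.681 to 8.84) and 3.05-fold H2B S112GlcNAc (1.12 to 9.60). TET2 alone was called, which chose the region. Within it the window from 3806251 had 14 TET2 positions, a count reached by 0.0402% of all windows. From 3807501 to 3808250 TET2 and OGT were high together, with 9 TET2, 4 OGT and 4 H2B S112GlcNAc positions in the window from 3807751.

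An internal start of Dnmt3a is listed 84.8 kb downstream of the first listed start in the RefSeq table, and 90.2 kb inside the gene's 5′ end. No annotation of the build of the reads was used, so the start was not placed on them, and distances alone can be set side by side. At 83.5 kb downstream of the strongest promoter-side window, the window from 3889751 held 8 TET2 positions, 1 OGT and 0 H2B S112GlcNAc. At 85.0 kb, the window from 3891251 held 7 TET2, 1 OGT and 3 H2B S112GlcNAc positions. At 86.2 kb, the window from 3892501 held 5 OGT, 2 TET2 and 4 H2B S112GlcNAc positions. None of them was called against the local background. The window with most OGT positions was thus not one of those with most TET2 positions. The next window to pass in any library, 89.0 kb downstream, held 5 H2B S112GlcNAc, 3 TET2 and 0 OGT positions. Which of these windows is nearest the start cannot be told.

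In the rest of Dnmt3a TET2 was called at chr12:3846751-3847500 and H2B S112GlcNAc at chr12:3899501-3900000. The first held 13 TET2, 5 OGT and 10 H2B S112GlcNAc positions, with folds of 13.5 (7.16 to 23.0), 9.08 (2.95 to 21.2) and 8.48 (4.07 to 15.6). All 3 libraries were high there, and no ratio between them had an interval that left out 1. The strands were uneven. All 13 TET2 and all 5 OGT positions were on the minus strand, and of the H2B S112GlcNAc positions 7 were minus and 3 plus, whereas at the promoter-side region both strands were filled. The part of this strand bias in the shared height was not tested. The second region held 12 H2B S112GlcNAc positions, 7 plus and 5 minus, a fold of 15.3 (7.89 to 26.7), with 0 TET2 and 0 OGT positions. The TET2 interval at a count of 0 reaches a fold of 5.72, and the OGT interval reaches into that of H2B S112GlcNAc. This H2B S112GlcNAc call was lost with 5′ ends not moved, at the depth of the smallest library and at a tail of 1e-05.

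Dnmt1, the maintenance methyltransferase, had 1 called region, at chr9:20757001-20757500. It held 10 TET2, 1 OGT and 6 H2B S112GlcNAc positions, with folds of 15.5 (7.44 to 28.5), 2.72 (0.0690 to 15.2) and 7.63 (2.80 to 16.6). TET2 and H2B S112GlcNAc were both high there while OGT had a single position, and its interval overlaps that of TET2. Of the TET2 positions 8 were minus and 2 plus. The neighbouring window from 20756751 held 7 TET2 and 7 H2B S112GlcNAc positions with 1 OGT position. The highest H2B S112GlcNAc window of the locus was elsewhere, from 20748501, with 9 positions against 2 for TET2 and 0 for OGT. The table lists Dnmt1 starts 6.91 and 7.26 kb inside the gene's 5′ end beside that at the end itself. With 1 called region there was no spacing to tell which of them it is near.

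Dnmt3b had no called region, although TET2 was highest in the window chr2:153475501-153476000 on its promoter side, with 7 TET2, 3 OGT and 0 H2B S112GlcNAc positions. Its strongest window over the 3 libraries, from 153475751, held 7 TET2, 4 OGT and 0 H2B S112GlcNAc positions. The TET2 fold was 10.9 (4.37 to 22.4), the OGT fold also 10.9 (2.97 to 27.9), and the H2B S112GlcNAc interval at a count of 0 reaches 4.69, which overlaps both. Scaled to library size, the ratio to H2B S112GlcNAc had a lower bound of 1.76 for TET2 and 1.41 for OGT. The window was chosen by its summed fold, so these ratios are a description. TET2 and OGT thus stood side by side at the same fold. In the rest of the locus no library passed 5 positions in a window.

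Tet1, which encodes the TET enzyme best known in ES cells, had no called region and the weakest promoter side for TET2. The promoter sides were not alike in coverage. At Tet1 the strongest window lay 0.750 kb from the 5′ edge of the locus, against 7.75 to 11.5 kb elsewhere. The Tet1 side thus held little sequence upstream of that window. Its highest promoter-side TET2 windows held 4 positions, a fold of 6.21 and a count reached by 2.03% of all windows. Several windows tied at this count, among them that from 62340001 and the window adjoining the strongest window on its downstream side. The strongest window over the 3 libraries, chr10:62349001-62349500, held 4 OGT, 1 TET2 and 2 H2B S112GlcNAc positions. Its OGT fold was 10.9 (2.97 to 27.9), and no ratio between libraries had an interval that left out 1. With 5′ ends not moved, the OGT fold there was 2.72. The highest TET2 window of the locus was in the rest, from 62306501, with 6 TET2, 0 OGT and 1 H2B S112GlcNAc positions.

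Tet3, which encodes a TET oxidase, held the single joint call of TET2 and OGT and every called OGT region. The region chr6:83406251-83407000 on its promoter side was called in TET2, with 15 TET2, 5 OGT and 4 H2B S112GlcNAc positions. The folds were 15.5 (8.69 to 25.6), 9.08 (2.95 to 21.2) and 3.39 (0.924 to 8.68). Scaled to library size, TET2 was 1.71-fold OGT (0.590 to 6.01) and 4.58-fold H2B S112GlcNAc (1.46 to 18.9). The choice of this region rests on the TET2 call, and the TET2 and OGT intervals overlap. At its upstream edge the window from 83406751 held 7 TET2, 5 OGT and 5 H2B S112GlcNAc positions.

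The region chr6:83391501-83392000 was called in TET2 and in OGT, the single region of the 5 loci called in more than 1 library. The joint call was lost at 8-fold, at a tail of 1e-05 and at the depth of the smallest library. It held 10 TET2, 9 OGT and 5 H2B S112GlcNAc positions, with folds of 15.5 (7.44 to 28.5), 24.5 (11.2 to 46.5) and 6.36 (2.06 to 14.8). Positions lay on both strands in each library, TET2 having 4 plus and 6 minus, OGT 4 plus and 5 minus, and H2B S112GlcNAc 2 plus and 3 minus. The TET2 to OGT ratio scaled to library size was 0.633 (0.231 to 1.76), an interval that holds 1. The window lies 15.2 kb downstream of the strongest promoter-side window. In the RefSeq table the listed Tet3 start lies 15.5 kb inside the gene's 5′ end, but the builds differ and the start was not placed on the reads.

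**Figure D3:**
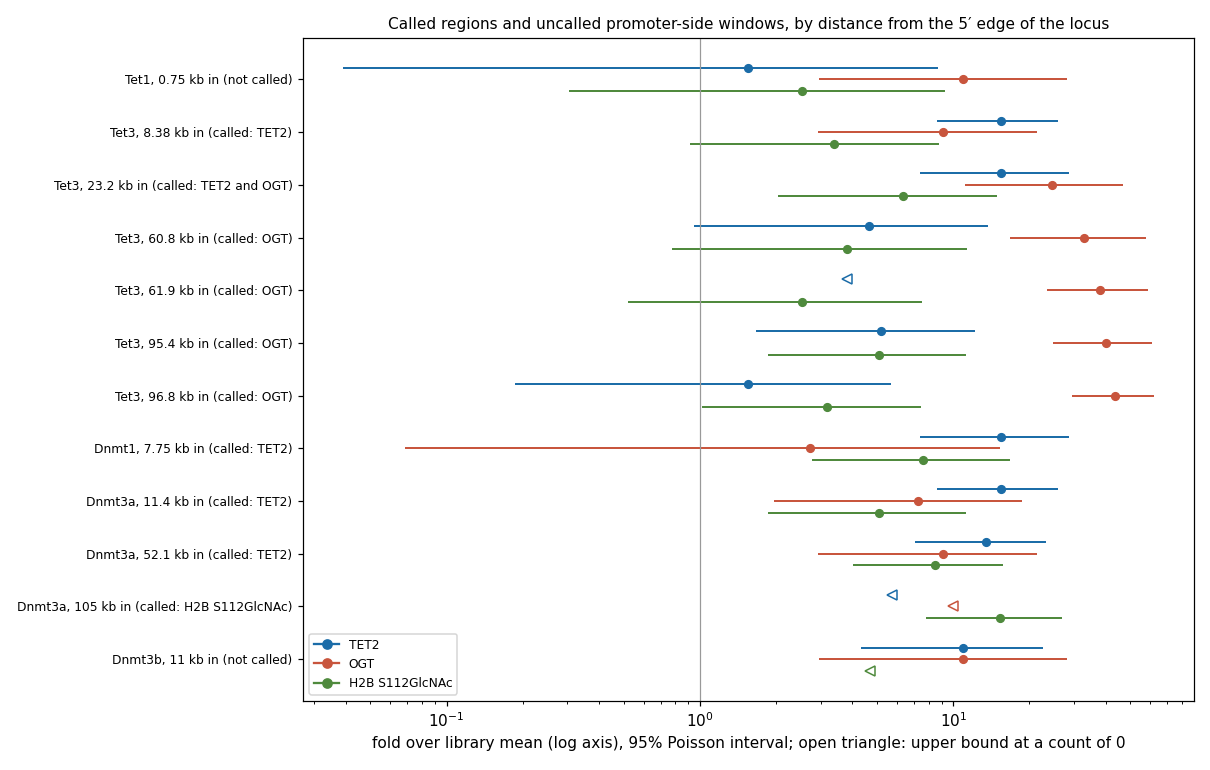
Fold over the library mean with 95% Poisson intervals (log axis) at the 10 called regions and at the strongest promoter-side windows of Tet1 and Dnmt3b, which were not called. Rows give the distance in kb from the 5′ edge of the locus, colours the library, and open triangles the upper bound of the interval at a count of 0. The 4 Tet3 regions over 50 kb in were chosen by their OGT call, with OGT folds of 32.7 to 43.6.

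In the body of Tet3 OGT reads formed dense blocks. OGT was called alone in 4 regions there, and since the OGT call chose them, the values of the 3 libraries are a description. The region chr6:83317751-83318750 held 32 OGT, 2 TET2 and 5 H2B S112GlcNAc positions, with folds of 43.6 (29.8 to 61.5), 1.55 (0.188 to 5.61) and 3.18 (1.03 to 7.42). At chr6:83319251-83320000 there were 22 OGT, 5 TET2 and 6 H2B S112GlcNAc positions, with folds of 40.0 (25.0 to 60.5), 5.17 (1.68 to 12.1) and 5.09 (1.87 to 11.1). At chr6:83352751-83353500 there were 21 OGT, 0 TET2 and 3 H2B S112GlcNAc positions, with folds of 38.1 (23.6 to 58.3), 0 (0 to 3.82) and 2.54 (0.525 to 7.43). At chr6:83354001-83354500 there were 12 OGT, 3 TET2 and 3 H2B S112GlcNAc positions, with folds of 32.7 (16.9 to 57.1), 4.66 (0.960 to 13.6) and 3.82 (0.787 to 11.2). H2B S112GlcNAc had 3 to 6 positions in each of the 4 regions, and TET2 0 to 5.

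Without moving the 5′ ends, runs of OGT ends no more than 250 bp apart, with at least 5 positions and 10-fold over the mean, were taken as blocks. This rule was chosen after the values were seen. Tet3 had 10 blocks, Dnmt3a 4 and the other loci 0. Of the Tet3 blocks 8 lay over 50 kb from the 5′ edge and covered 3711 bp. They were chosen for OGT density, so their OGT level of 134 positions, a fold of 49.2, is a description. The same stretches held 16 TET2 positions, a fold of 3.35 (1.91 to 5.43). H2B S112GlcNAc had 26 positions there, a fold of 4.46 (2.91 to 6.53). The 8 blocks took 49.3% of the OGT positions of the locus, 5.86% of those of TET2 and 8.50% of those of H2B S112GlcNAc. Outside all 10 blocks OGT had a fold of 1.55 (1.28 to 1.85), TET2 1.70 (1.48 to 1.93) and H2B S112GlcNAc 1.61 (1.42 to 1.81). The removal of OGT-dense stretches lowers the OGT value by construction. Outside the 8 blocks alone TET2 had a fold of 1.88 (1.65 to 2.12) and H2B S112GlcNAc 1.68 (1.48 to 1.88). The H2B S112GlcNAc interval within the 8 blocks lies above that outside, and the TET2 intervals overlap.

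The blocks were short. The longest of the 8 spanned 972 bp and the shortest 61 bp, and the densest of those with at least 20 positions, 456 bp from 83352764, held 24 OGT, 0 TET2 and 2 H2B S112GlcNAc positions. They fell into a group from 60.8 to 63.5 kb and a group from 89.1 to 96.7 kb from the 5′ edge. Repeated reads were few, with 35 reads at the 32 positions of the block from 83317967. Among called regions 2 had at least 10 ends on each strand, both of them OGT regions in the body of Tet3. There the median minus-strand end lay at most 20.0 bp to the right of the median plus-strand end, less than the read length of 44 bp. This distance moved with the bounds, since it was 184 bp over the block from 83319062, which overlaps the region with 20.0 bp. In the other OGT regions, with fewer ends, it was 65.0, 80.0 and 312 bp, and in TET2 regions with ends on both strands it ranged from -81.0 to 180 bp, so the OGT and TET2 distances overlapped. Whether the blocks lie on exons was not tested, since exon positions in build mm9 were not used here.

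**Figure D4:**
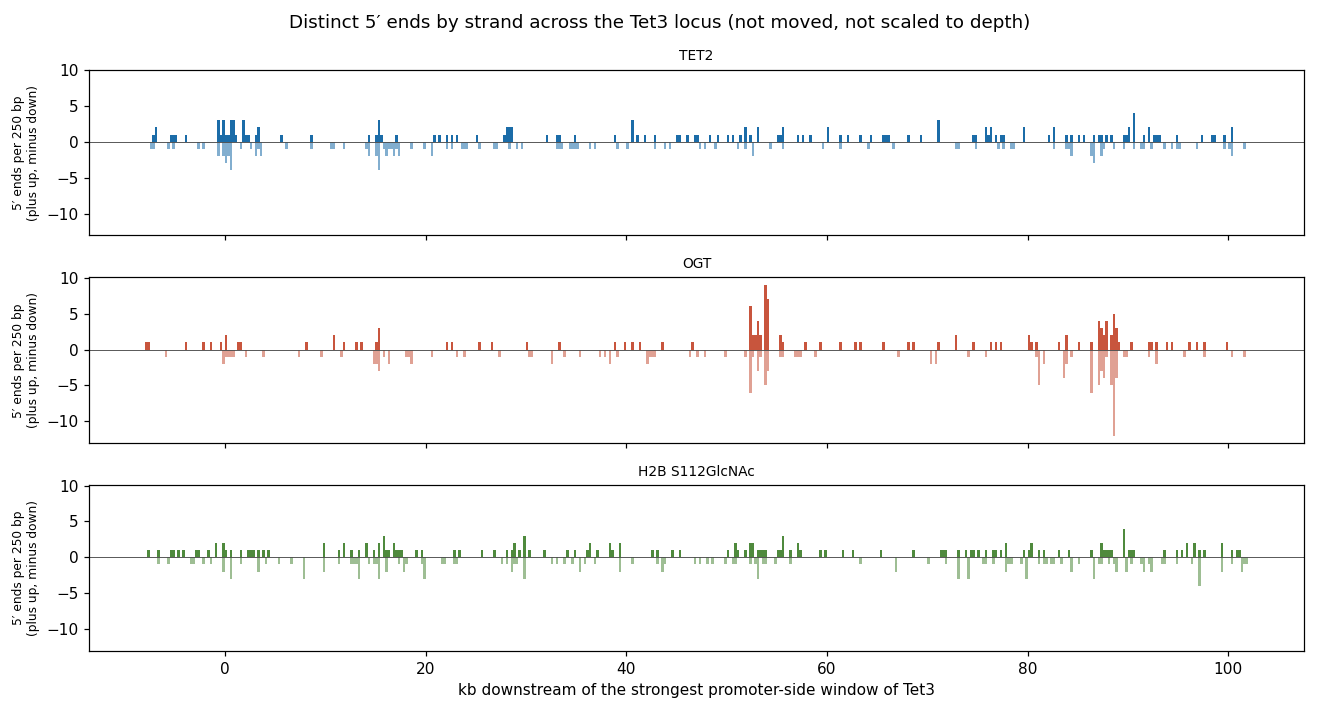
Distinct 5′ ends per 250 bp across the Tet3 locus, plus strand upward and minus strand downward, for the 3 libraries, against distance in kb downstream of the strongest promoter-side window. Counts are not scaled to depth. OGT ends pile up on both strands in 2 groups of blocks in the body, the stretches chosen as blocks for their OGT density. TET2 and H2B S112GlcNAc ends are fewer there, at folds of 3.35 and 4.46.

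Whether TET2, OGT and the H2B mark met in the same windows was also asked with a looser rule, since few windows reach the local threshold. A window passed when its count was at least 4-fold the library mean and the lower Poisson bound was over 2-fold, which takes 5 TET2, 4 OGT or 5 H2B S112GlcNAc positions. By it 62 TET2 windows passed (3.53%, against 0.980% of all windows), 41 OGT windows (2.34% against 0.446%) and 51 H2B S112GlcNAc windows (2.91% against 1.07%). Of the OGT windows 30 were in Tet3. TET2 and OGT passed together in 10 windows (0.570% against 0.165%), TET2 and H2B S112GlcNAc in 10 (0.570% against 0.295%), and OGT and H2B S112GlcNAc in 7 (0.399% against 0.144%). The loci as a whole were also denser than the genome, and the part of this in these shares was not tested.

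All 3 passed together in 5 windows, 0.285% against 0.102% of all windows. They form 3 places, the Tet3 region from 83391251 to 83392000, the Tet3 window from 83406751, and the one-sided Dnmt3a region from 3846751 to 3847500. Of the 8 windows called for TET2 against the local background, 3 also passed in OGT, 37.5% against 36.3% of all such TET2 windows, and 5 in H2B S112GlcNAc, 62.5% against 54.2%. In both other libraries 3 passed, 37.5% against 26.8%. With 8 windows, some of them overlapping, these shares are near those of the genome. At Dnmt1 the pairs were of TET2 and H2B S112GlcNAc, in 3 windows, and none of TET2 and OGT. At Dnmt3b TET2 and OGT passed together in 1 window, and no window had TET2 with H2B S112GlcNAc. In Tet1 no window passed in any pair of libraries.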

How the data were processed

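The deposited files list aligned reads, 1 per line, each 44 bp long, and the deposited score is the same in every line and carries no measurement. CASAVA 1.4, Bowtie 0.12.2 and build mm9 are named, per the submitters' processing notes. The treatment of reads with several matches is not given. Reads on chromosomes 1 to 19 and X were counted after removing repeats of a position and strand (13.9%, 13.8% and 13.4% of reads for TET2, OGT and H2B S112GlcNAc). Windows of 500 bp every 250 bp were compared with whichever was highest, the library mean or the density of the 10 kb or 50 kb around them, omitting the window itself and its 500 bp flanks. Poisson tails were adjusted (Benjamini-Hochberg) over 10230141 windows, a call within a library that does not compare antibodies. Intervals are exact (Poisson, and Clopper-Pearson for ratios scaled to library size). The call rule was also run on simulated data, and the outcome is not reported here. Python 3.11.15, numpy 2.4.6 and scipy 1.17.1 were used. The loci, lists and rules were chosen with earlier results of these data known. Every called region is named, and for each locus the promoter-side window with the highest summed fold. Single windows beside them were named after their values were seen. Strands and promoter sequences came from RefSeq (GRCm38.p6). Other genes of the pathway were not analysed here, since annotation of the build was not used.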

Additional observations from a re-analysis of the deposited data

How the results depend on the processing

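No paired analysis was possible because the labels give a single library of each kind. Across 285 alternative values, 263 counts and folds kept within 1.5 times or within the 95% interval, and 22 moved. Of the counts of regions per library 11 of 27 moved, and of the counts of regions where libraries meet 8 of 27. Among densities 2 of 156 moved, and among promoter-side window folds 1 of 75. Stricter rules or fewer reads lower counts by construction. With every read kept the counts of regions did not change. Drawn down to the smallest library, regions were 3 for TET2 and 0 for H2B S112GlcNAc, and 0 were called in 2 libraries. With no shift H2B S112GlcNAc had 0 and the OGT fold at the strongest Tet1 window was 2.72. The library mean as background gave 34 TET2, 16 OGT and 34 H2B S112GlcNAc regions, 65 merged, 13 of them in at least 2 libraries and 6 in all 3. At 8-fold there were 1 TET2 and 3 OGT regions, 5 merged and 0 in 2 libraries. At a tail of 1e-05 there were 1 TET2, 2 OGT and 0 H2B S112GlcNAc regions, 3 merged and 0 in 2 libraries. So the joint TET2 and OGT call in Tet3 was lost under the stricter rules and at lower depth. Asking for both strands, chosen after seeing the data, left 4 TET2 regions and removed the Dnmt3a region from 3846751. Without the OGT read blocks, also chosen after seeing the data, the OGT fold in the rest of Tet3 was 1.65 in place of 3.63, and the TET2 fold on its promoter side 2.13 in place of 3.05, since 1 block lies over the TET2 region. The cause of the other changes was not tested.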
